A study of Mus musculus with 6 samples.

Results

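Cilium genes were described in RNA-seq of the hippocampus of adult male C57BL/6 mice, with 3 libraries labelled Control and 3 labelled MA and 1 library per mouse. The Control mice received saline, and the MA mice received methamphetamine (MA) in a dose that went from 5 mg/kg in week 1 to 10 mg/kg in week 2 and 15 mg/kg in week 3, before behavioral tests on day 22 and tissue collection. Members were the rows of the deposited table whose symbol begins with Dnah, Cfap, Rsph, Ift, Tekt or Bbs and a number, or with Spag6, or is Foxj1, Ccdc153 or Tmem212. This gave 83 of the 16060 rows, with 82 distinct identifiers because Dnah12 stands on a pair of rows. Of the 83, 50 formed the motile class (Dnah, Cfap, Rsph and Foxj1) and 22 the general class (Ift and Bbs). A further 9 were Tekt, Spag6, Spag6l, Ccdc153 and Tmem212 rows, and the remaining 2, Dnah2os and Ift88os, are antisense RNAs.

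Cilia are hair-like projections built on a ring of microtubules, the axoneme. Neurons and astrocytes of the hippocampus carry a non-moving primary cilium that receives signals such as hedgehog and some neuropeptides. The ependymal cells that line the ventricles carry tufts of beating cilia, and the epithelium of the choroid plexus, which lies against the hippocampus, is ciliated as well. All cilia need intraflagellar transport (IFT), the traffic of cargo along the axoneme, and the BBSome, which moves membrane proteins in and out. Beating cilia also need axonemal dyneins and, in ependymal cells, radial spokes and a central pair, whose genes are switched on by the forkhead factor Foxj1 together with RFX factors.

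In the promoters of the members, the letters GTTGCC were searched first. They form an arm of the X-box, the site that RFX factors bind. RefSeq promoters on GRCm38.p6, from 250 bases before a transcription start to 50 after it, were found for 67 of the 82 member symbols, with 74 promoters in all. GTTGCC stood on either strand in 28 of these 74 promoters (37.8%), against 12.5% of all 32851 promoters. Its share was 30.2% of 43 motile promoters, 42.1% of 19 general promoters and 58.3% of the 12 Tekt, Spag6, Ccdc153 and Tmem212 promoters. In each of these classes the share stood above that of all promoters. A raised share was not particular to the members. On gene lists read further on, GTTGCC stood in 53.7% of 54 promoters of other motile cilium genes and 32.8% of 67 of other primary cilium genes. It stood in 27.8% of 18 promoters of choroid plexus markers. GTAAACA, the core of a forkhead site, stood in 5.41% of member promoters and 3.65% of all promoters. CCAAT, the letters of a common promoter box, stood in 40.5% and 37.4%. By class its share was 37.2% of motile, 57.9% of general and 25% of the remaining member promoters. The 3 stretches below are examples from members described by library further on that hold GTTGCC or its reverse complement, in capitals, before the start. Cfap46, which holds it 9 bases before its start, and a second annotated start of Cfap74 with 2 matches before it are not shown. Each is the 250 bases before a transcription start, read 5′ to 3′ in the direction of the gene on GRCm38.p6:
Ccdc153 (chr9:44240427-44240676, plus strand): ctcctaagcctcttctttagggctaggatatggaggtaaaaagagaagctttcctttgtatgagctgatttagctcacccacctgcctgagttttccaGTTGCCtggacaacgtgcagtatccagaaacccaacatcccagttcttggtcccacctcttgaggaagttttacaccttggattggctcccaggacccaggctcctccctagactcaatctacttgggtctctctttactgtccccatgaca
Cfap74 (chr4:155408940-155409189, plus strand): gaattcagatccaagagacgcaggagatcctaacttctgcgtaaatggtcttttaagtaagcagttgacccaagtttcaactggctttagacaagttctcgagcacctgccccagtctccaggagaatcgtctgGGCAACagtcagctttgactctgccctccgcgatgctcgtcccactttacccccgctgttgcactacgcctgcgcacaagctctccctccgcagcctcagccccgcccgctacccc
Tekt1 (chr11:72361883-72362132, minus strand): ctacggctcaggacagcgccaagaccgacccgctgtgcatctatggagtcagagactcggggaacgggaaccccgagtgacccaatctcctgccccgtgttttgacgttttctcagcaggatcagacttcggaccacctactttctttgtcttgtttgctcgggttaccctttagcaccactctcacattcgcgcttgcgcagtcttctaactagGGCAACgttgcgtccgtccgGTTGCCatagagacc
In Ccdc153 the letters began 152 bases before the start, in Cfap74 116 bases before the start shown, and in Tekt1 both orientations stood close together, at 35 and 15 bases before it. A match of letters is a description and does not show binding.

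**Figure D1:**
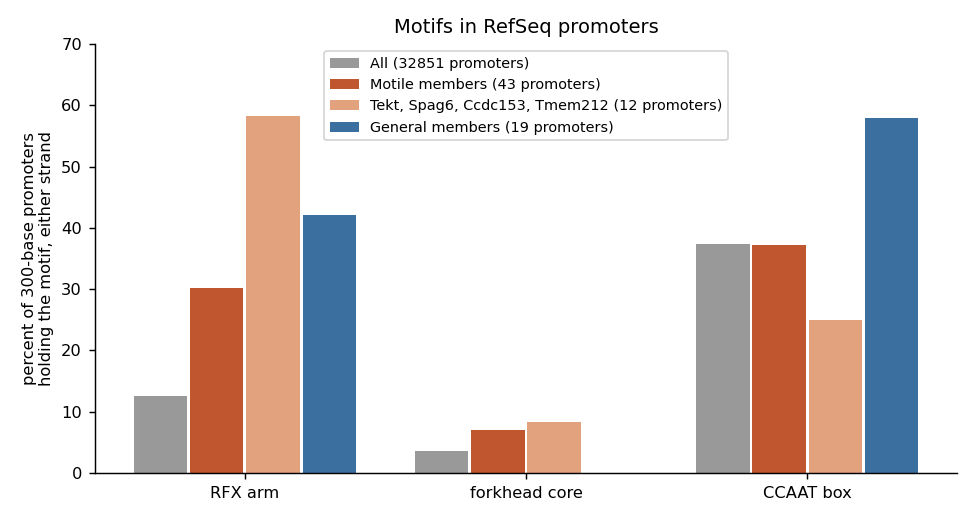
Percent of RefSeq promoters, from 250 bases before the start to 50 after it, that hold each motif on either strand, for all promoters, motile members, general members and the remaining members. The bars for the RFX arm stand at 12.5% for all promoters, 30.2% for motile members and 42.1% for general members.

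Levels are given as log2 of RPKM plus 1, the scale on which the deposited values were read. RPKM is a read count scaled to gene length and library size, so levels can be compared between genes. Genes with at least 0.5 RPKM in at least 3 libraries were tested with limma, 13321 in all, and adjusted p-values (Benjamini-Hochberg) cover all of them. A log2 fold change is the MA mean minus the Control mean, and it understates the change of low genes. Markers of hippocampal principal neurons were present throughout, with a lowest value of 2.70 over 10 genes. The library MA replicate 3 stood apart from the others, with a mean correlation to its group of 0.978 where the other libraries had 0.984 to 0.993, across genes. The files hold no counts, and the depth behind a value is therefore unknown.

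General members were the more abundant class. All 22 passed the filter, with a median level of 3.42, against 3.25 over all tested genes, and the highest was Ift20 at 6.23. Of the 50 motile members 31 passed, with a median level of 1.45. Within the motile class the levels were uneven. Cfap36, Cfap20 (4.56) and Rsph9 (4.19) lay above the general median, while 10 of 16 Dnah rows, 7 of 25 Cfap rows and 2 of 8 Rsph rows stayed under the filter. The spread between libraries was also wider for the motile members, with a median SD over the Control libraries of 0.23 against 0.09 for the general members and 0.10 for all tested genes.

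No member passed an adjusted p-value of 0.05 in either direction (limma), where 0.263% of all tested genes did, and the smallest adjusted p among the 61 tested members was 0.252, for Tekt4. At an unadjusted p-value under 0.05, 6 of 31 motile members (19.4%) were higher in MA and 0 lower, against 10.4% of all tested genes, 4.99% higher and 5.46% lower. Of the 22 general members, 0 reached this threshold. The median log2 fold change was 0.26 for the motile members, 0.05 for the general members and -0.01 for all tested genes. Of the 31 motile members 26 had a value above 0, and of the general members 15, where 47.3% of all tested genes did. Cfap206, Cfap46 and Tekt4 reached 0.5 RPKM in all 3 MA libraries but in only 1, 1 and 2 Control libraries, so they passed the filter through the group where they are higher. Without Cfap206 and Cfap46 the motile median was 0.14 and 5 of 29 motile members were higher in MA at an unadjusted p-value under 0.05. In these bulk libraries, more ciliated cells and more RNA per cell cannot be told apart.

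The motile median rested on few libraries. Without MA replicate 3 it was 0.04, with 19 of 31 members above 0, and the general median was -0.01. At an unadjusted p-value under 0.05, 4 of 31 motile members were then higher in MA, where 11.9% of all tested genes were. Without Control replicate 3 the motile median was 0.15. The difference between the motile and general medians was 0.21 with all libraries, 0.05 without MA replicate 3 and 0.10 without Control replicate 3.

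**Figure D2:**
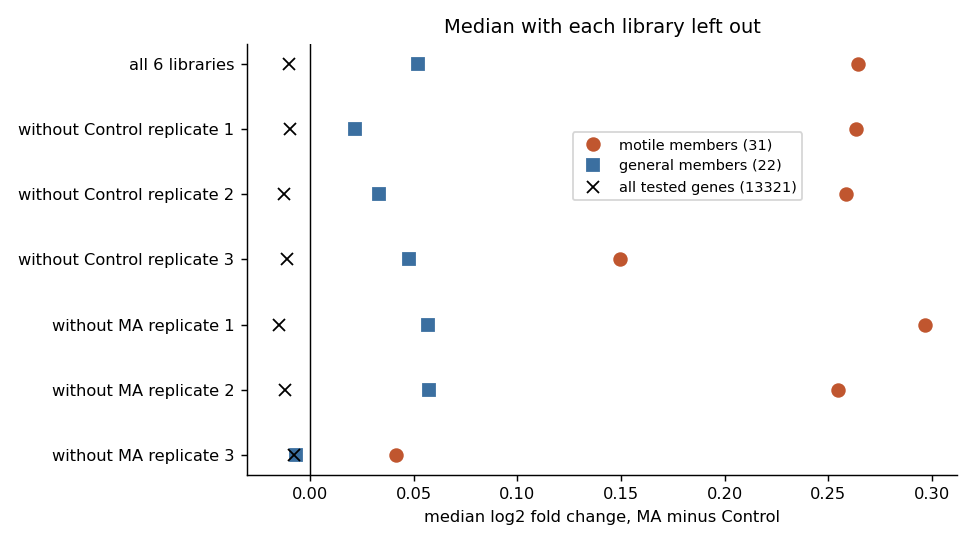
Median log2 fold change (MA minus Control) of the motile members, the general members and all tested genes, with all 6 libraries and with each library left out. The motile median is 0.26 with all libraries and 0.04 without MA replicate 3.

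The mean level of the motile members, taken over the 31 tested genes, was 1.905, 1.81 and 1.73 in Control replicates 1, 2 and 3 and 1.84, 1.97 and 2.33 in MA replicates 1, 2 and 3. The groups thus overlapped, and MA replicate 3 alone lay clearly above the rest. The mean level of the general members was 3.43, 3.39 and 3.43 in the Control libraries and 3.39, 3.41 and 3.58 in the MA libraries, again with MA replicate 3 on top and the other 5 libraries close together. MA replicate 3 was the highest library for 19 of 31 motile members and 11 of 22 general members, and for 25.6% of all tested genes. Among the Control libraries, replicate 1 was the highest for 19 of 31 motile members.

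**Figure D3:**
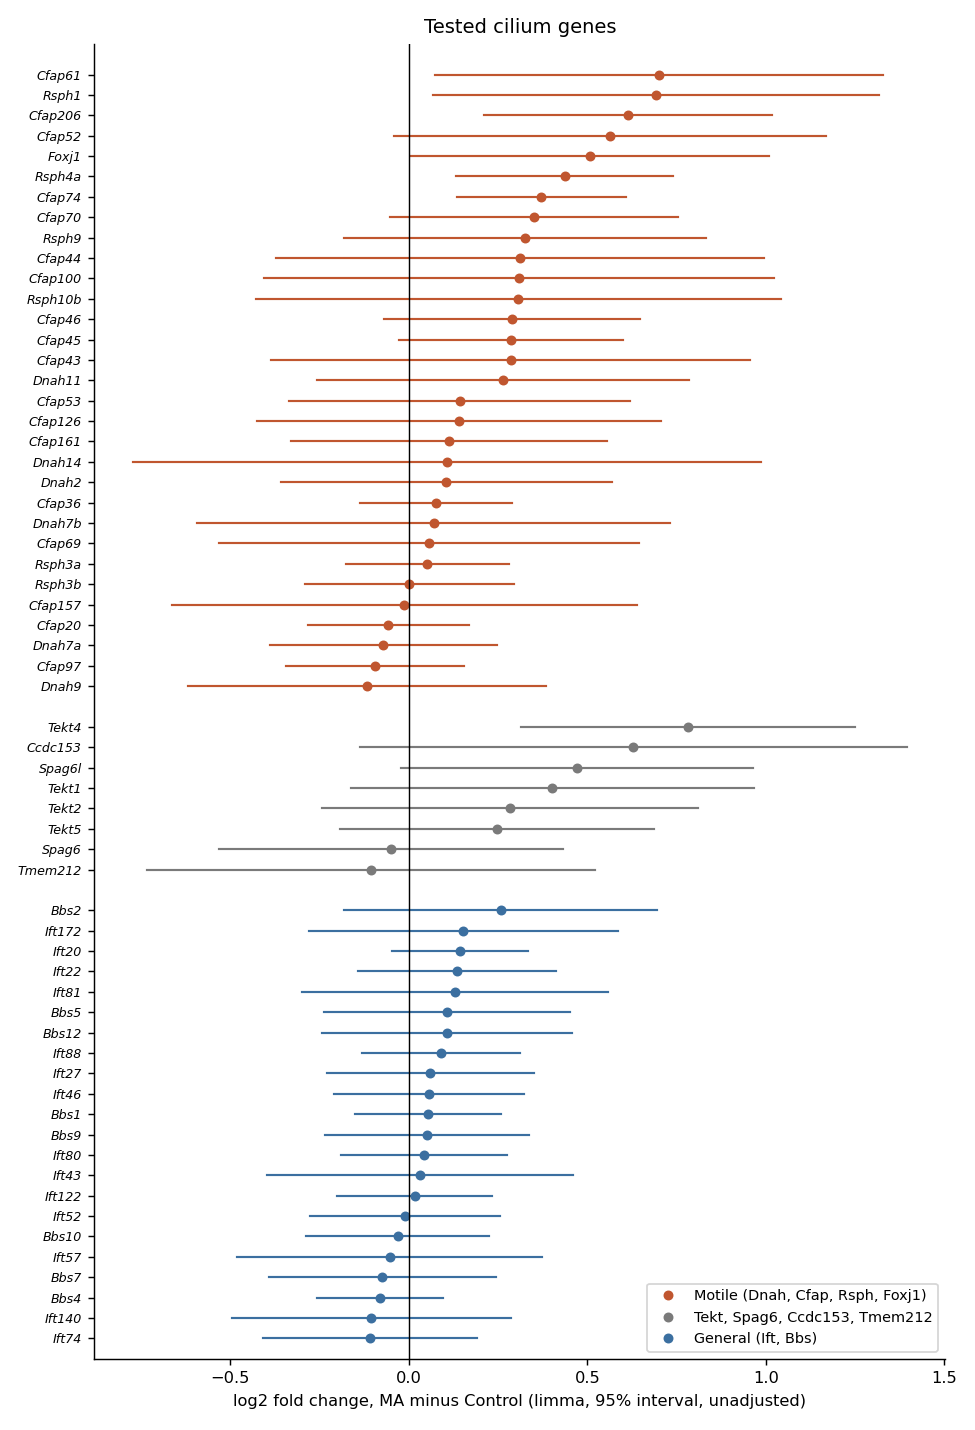
Log2 fold change (MA minus Control) of each tested member with its 95% interval from limma, not adjusted for the number of genes, grouped into motile members, general members and the remaining members. The intervals of 25 of 31 motile members and 22 of 22 general members include 0.

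Foxj1, the transcription factor that switches on the motile programme, had levels of 2.64, 1.86 and 2.03 in the Control libraries and 2.46, 2.70 and 2.89 in the MA libraries. Control replicate 1 lay inside the range of the MA libraries, so the groups overlapped. The log2 fold change was 0.51 (SE, the standard error, 0.21, limma adjusted p = 0.474), and the exact two-sided permutation test gave p = 0.2, where 3 libraries against 3 cannot go below 0.1. The value ranged from 0.35 to 0.74 with each library left out.

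Ccdc153 and Tmem212 are known as markers of ependymal cells. Ccdc153 was 3.42, 2.44 and 2.33 in the Control libraries and 2.86, 3.54 and 3.69 in the MA libraries, which gave 0.63 on the log2 scale (SE 0.33, limma adjusted p = 0.572) and 0.43 to 0.97 with each library left out, the highest without Control replicate 1. Tmem212 was 2.91, 1.99 and 2.33 in the Control libraries and 1.87, 2.48 and 2.56 in the MA libraries, with a difference of -0.11 (limma adjusted p = 0.933). In both genes Control replicate 1 was the highest Control library by far and MA replicate 1 the lowest MA library, so the spread within the groups was as large as the difference between them. The sign for Tmem212 turned without Control replicate 1 (0.14) and without MA replicate 1 (0.11).

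The radial spokes, which pass signals from the central pair to the dyneins, are built from Rsph proteins. Of 6 tested Rsph genes all 6 had values above 0, where 47.3% of all tested genes did. At an unadjusted p-value under 0.05, 2 of the 6 were higher in MA, where 4.99% of all tested genes were. The family median was 0.32, or 0.03 without MA replicate 3. Rsph1, a protein of the spoke head, was 2.82, 2.55 and 2.56 in the Control libraries and 2.999, 3.007 and 4.005 in the MA libraries. Every MA library lay above every Control library, and MA replicate 3 stood far above the other 5. The log2 fold change was 0.69 (SE 0.27, limma adjusted p = 0.437) and 0.36 without MA replicate 3. Rsph4a, another spoke head protein, was 0.99, 0.71 and 0.94 in the Control libraries and 1.16, 1.42 and 1.37 in the MA libraries. The groups did not overlap and no library stood out. Its log2 fold change was 0.44 (SE 0.13, limma adjusted p = 0.324), with 0.35 to 0.52 over the fits that each left out 1 library. Rsph9, the most abundant spoke gene, was between 3.91 and 4.09 in 5 libraries and 4.89 in MA replicate 3, and its log2 fold change of 0.33 was 0.05 without that library. Rsph3a and Rsph3b are close copies between which reads could be split, and their log2 fold changes of 0.0521 and 0.0017 are uncertain.

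Spag6 and its copy Spag6l belong to the central pair and are uncertain for the same reason. Spag6l was 1.62, 1.58 and 1.67 in the Control libraries and 1.85, 2.61 and 1.82 in the MA libraries. All 3 MA libraries lay above the Control libraries, with MA replicate 2 the highest (log2 fold change 0.47, limma adjusted p = 0.498), and the log2 fold change was 0.21 without that library. Spag6 had a log2 fold change of -0.05 with overlapping groups.

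The Cfap symbols cover axonemal proteins of many kinds. Of 18 tested, 15 had values above 0, where 47.3% of all tested genes did. The median was 0.29, or 0.08 without MA replicate 3. At an unadjusted p-value under 0.05, 3 (16.7%) were higher in MA, where 4.99% of all tested genes were. Cfap206, among these 3, passed the filter through the MA libraries. Cfap74, a protein of the central pair, was 2.21, 2.27 and 2.29 in the Control libraries and 2.49, 2.70 and 2.70 in the MA libraries. Both groups were narrow and apart, with a log2 fold change of 0.37 (SE 0.10, limma adjusted p = 0.277) that stayed between 0.34 and 0.44 with each library left out. Cfap206, a protein of the spoke region, was 0.82, 0.29 and 0.43 in the Control libraries and 0.95, 1.34 and 1.10 in the MA libraries. The groups did not overlap, though Control replicate 1 came close to MA replicate 1 (log2 fold change 0.61, SE 0.17, limma adjusted p = 0.290). With limma's sample quality weights, under which MA replicate 3 counted least, Cfap206 and Cfap74 passed the adjusted threshold, at limma adjusted p-values of 0.0469 and 0.0487. These were 2 of 61 members in a fit that called 586 of all 13321 genes. Cfap61, also of the spoke region, was between 0.70 and 0.83 in the Control libraries and 0.81, 1.67 and 1.93 in the MA libraries, so MA replicate 1 lay among the controls. Cfap61 shares exonic sequence with Crnkl1 and Cfap74 with 5830444B04Rik, each on the other strand, and whether counting used strand is not given in the sources used here. Cfap36, the most abundant Cfap gene, was between 5.87 and 6.12 in all 6 libraries, with a log2 fold change of 0.08 and a 95% interval from -0.14 to 0.29.

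The Dnah genes encode the heavy chains of axonemal dyneins, the motors of the beat. Their family median was 0.09 over 6 tested genes, or -0.15 without MA replicate 3. Of all tested genes 10.4% reached an unadjusted p-value under 0.05, and 0 of these 6 Dnah genes did. Dnah9, an outer arm heavy chain and the most abundant of them, was 1.93, 1.72 and 1.48 in the Control libraries and 1.18, 1.62 and 1.97 in the MA libraries. The MA range enclosed the Control range (log2 fold change -0.12, limma adjusted p = 0.903). Dnah11, also of the outer arm, was 0.31, 0.12 and 0.66 in the Control libraries and 0.21, 0.70 and 0.97 in the MA libraries, and it shares exonic sequence with Cdca7l on the other strand. Both genes were lowest in MA replicate 1 and highest in MA replicate 3 among the MA libraries. Dnah7a, Dnah7b and Dnah7c are close copies and uncertain.

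Tektins are filament proteins inside the axonemal microtubules. All 4 tested Tekt genes had values above 0, where 47.3% of all tested genes did, with a median of 0.34, or 0.19 without MA replicate 3. Tekt4 was 0.26, 1.04 and 0.90 in the Control libraries and 1.48, 1.56 and 1.51 in the MA libraries. The MA libraries lay close together and above all Control libraries, of which replicate 1 was far the lowest. Its log2 fold change of 0.78 (SE 0.20, limma adjusted p = 0.252) was the highest of all tested members, and it was 0.55 without Control replicate 1. Tekt1 was 1.59, 1.30 and 1.31 in the Control libraries and 1.55, 1.48 and 2.37 in the MA libraries, so it was set apart by MA replicate 3 alone (log2 fold change 0.40, or 0.12 without that library). Tekt5 ranged from 1.80 to 2.43 in the Control libraries and from 2.21 to 2.62 in the MA libraries.

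**Figure D4:**
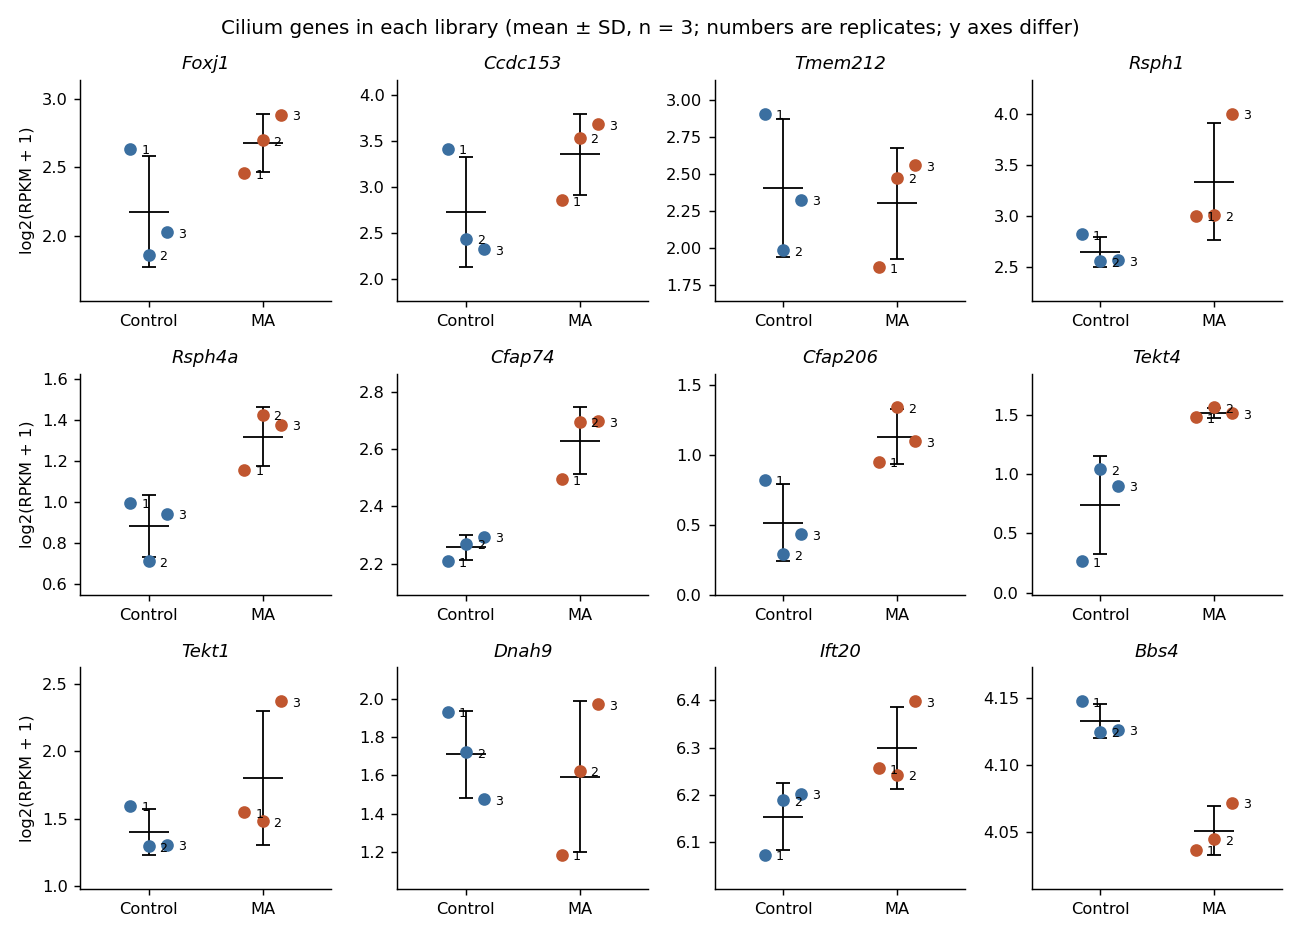
Log2 of RPKM plus 1 for 12 members in each of the 6 libraries, with the mean and SD of each group (n = 3) and the replicate number beside each point. The groups are apart for Rsph1, Rsph4a, Cfap74, Cfap206, Tekt4, Ift20 and Bbs4, and overlap for Foxj1, Ccdc153, Tmem212, Tekt1 and Dnah9.

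The IFT genes showed small differences. Over 14 tested Ift genes the log2 fold changes ran from -0.11 for Ift74 to 0.15 for Ift172, with a median of 0.05, or -0.02 without MA replicate 3. Ift20, a subunit of the B complex that also acts at the Golgi, was 6.07, 6.19 and 6.20 in the Control libraries and 6.26, 6.24 and 6.40 in the MA libraries. Its groups did not overlap, yet the log2 fold change was 0.14 (SE 0.08, limma adjusted p = 0.603). Ift22, also of the B complex, ranged from 4.65 to 5.04 in the Control libraries and from 4.90 to 5.09 in the MA libraries. Ift88, a core B subunit, had a log2 fold change of 0.09 with a 95% interval from -0.13 to 0.31, and its exons overlap those of Ift88os on the other strand.

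The Bbs genes encode the BBSome and the chaperonin-like proteins that help assemble it. Over 8 tested Bbs genes the log2 fold changes ran from -0.08 for Bbs4 to 0.26 for Bbs2, with a median of 0.05, or 0.0055 without MA replicate 3. Bbs2, a BBSome subunit, was between 3.45 and 3.58 in 5 libraries and 4.23 in MA replicate 3. Its log2 fold change was 0.03 without that library. Bbs4, another subunit, was 4.15, 4.12 and 4.13 in the Control libraries and 4.04, 4.05 and 4.07 in the MA libraries. It was the only tested member with every MA library below every Control library, by -0.08 (limma adjusted p = 0.767), where 10.2% of all tested genes lay apart in this direction, and it shares exonic sequence with Adpgk on the other strand. The 95% intervals of all 22 general members lay between -0.50 and 0.70 on the scale of log2 of RPKM plus 1, and those of the 31 motile members between -0.77 and 1.33.

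The groups did not overlap for 8 of the 61 tested members. Tekt4, Cfap74, Cfap206, Rsph4a, Rsph1, Spag6l and Ift20 were higher in MA, which is 11.5% of the members against 7.32% of all tested genes, and Bbs4 was lower. Tekt4 and Cfap206, however, passed the filter through the MA libraries. Without the 3 members that did so (Cfap46 is the other), 5 of 58 were apart and higher in MA.

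Under the filter stood 22 members, 19 of them motile, and their highest value in any library was 1.13. Closest below it were Cfap54, Cfap77 and Dnah1, and closest above it Cfap53, Dnah11 and Cfap46. Cfap54, of the central pair, ranged from 0.36 to 0.55 in the Control libraries and from 0.56 to 1.13 in the MA libraries. Cfap77 ranged from 0.16 to 0.43 and from 0.52 to 0.77. Dnah1, an inner arm heavy chain, ranged from 0.31 to 0.45 and from 0.44 to 0.59. Just above the filter, Cfap46 ranged from 0.47 to 0.64 and from 0.60 to 1.12, and Cfap53 ranged from 0.08 to 0.86 and from 0.46 to 0.78. Cfap54, Cfap77 and Dnah1 were not tested. Tekt3 and Cfap73 were listed at 0 in Control replicate 2.

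Other genes of the motile cilium, 62 rows on a list made without the symbols above, were read beside the members. Of 49 tested, 39 had values above 0, where 47.3% of all tested genes did, and 0 passed the adjusted threshold. At an unadjusted p-value under 0.05, 8 (16.3%) were higher in MA and 0 lower, where 4.99% and 5.46% of all tested genes were. The median of the 49 was 0.15, or 0.07 without MA replicate 3. Drc7, of the nexin link between microtubules, was 0.91, 0.60 and 0.68 in the Control libraries and 1.57, 1.96 and 2.21 in the MA libraries (log2 fold change 1.18, limma adjusted p = 0.0628). Zmynd10, needed to assemble dynein arms, was 1.58, 1.09 and 1.39 and then 2.08, 2.13 and 2.30 (log2 fold change 0.82, limma adjusted p = 0.117). Without MA replicate 3 Drc7 passed the threshold, at a limma adjusted p of 0.0389, with a log2 fold change of 1.035, in a fit that called 257 genes where 35 were called with all libraries. The 7 tested regulators of multiciliated cells had a median of 0.04, with Gmnc, which starts their programme, at 0.34 (limma adjusted p = 0.385).

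Other genes of the primary cilium numbered 60, of which 59 were tested. Their median was 0.03, with 33 above 0 (55.9%, against 47.3% of all tested genes). At an unadjusted p-value under 0.05, 5 (8.47%) were higher in MA and 0 lower, where 4.99% and 5.46% of all tested genes were. Of these 5, 4 belong to the 19 genes of the transition zone, the gate at the base of the cilium, a group pointed out after its values were seen. Tmem237 had the smallest p of the 5, with a log2 fold change of 0.47 (limma adjusted p = 0.204, or 0.0346 in that same fit without MA replicate 3). In that fit Kif3a, a motor of IFT outside the transition zone, passed as well (log2 fold change 0.53, limma adjusted p = 0.0415). IFT subunits without an Ift symbol had a median of 0.0067 and the motors of IFT a median of -0.0049.

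Markers of ciliated cell types were read in the same libraries. Of 17 choroid plexus markers, 17 had values above 0, 16 had groups apart and 7 passed the adjusted threshold (limma). Over all tested genes, 47.3% had values above 0, 17.5% had groups apart and 0.263% passed that threshold. Their summed level was 109 to 486 RPKM in the Control libraries and 1952 to 5356 RPKM in the MA libraries, or 50.9 to 75.6 and 208 to 323 RPKM without Ttr, the main secreted protein of that tissue. None was listed at 0. Within the MA libraries their mean level had the same order as that of the motile members, with replicate 1 the lowest at 2.98 and replicate 3 the highest. Within the Control libraries the order was the opposite, since replicate 1 had the lowest choroid plexus level (1.46) and the highest motile level. Of 12 ependymal markers outside the rule, 6 are also on the list of other motile genes. Of the 12, 11 had values above 0 and 0 passed the adjusted threshold (limma). At an unadjusted p-value under 0.05, 2 (16.7%), Nnat and Hdc, were higher in MA, where 4.99% of all tested genes were. The summed level of the 12 was 375 to 422 RPKM in the Control libraries and 544 to 630 RPKM in the MA libraries. Most of it was Nnat, which neurons express as well, and without it the sum was 98.8, 81.9 and 75.0 RPKM in Control replicates 1, 2 and 3 and 87.6, 101 and 140 RPKM in MA replicates 1, 2 and 3. None of these was listed at 0 either. Without Nnat, the ependymal sum had overlapping groups and the same order of libraries within each group as the motile members. Of its genes 6 are on the list of other motile genes, outside the members, so this sum is in part itself a level of motile cilium genes. Nnat, left out of that sum, was 9.09, 9.02 and 8.66 in MA replicates 1, 2 and 3, lowest where the motile members were highest. The part of either cell type in the values of the cilium genes was not tested.

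**Figure D5:**
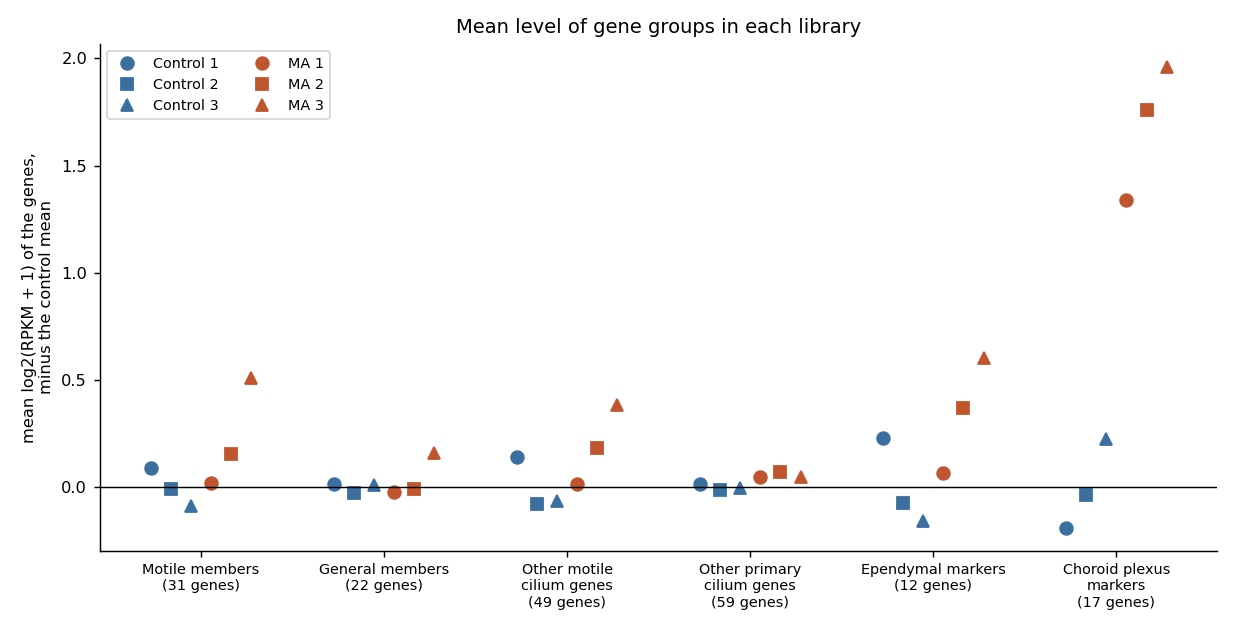
Mean log2 of RPKM plus 1 over the genes of each group in each library, minus the mean of the 3 Control libraries. Choroid plexus markers set all 3 MA libraries apart, motile members and ependymal markers have overlapping groups with MA replicate 3 on top, and general members differ little.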

How the data were processed

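Per the methods of the study, Hisat2 aligned the reads, featureCounts gave a count per gene and FPKM was derived from it, whereas the submitters' processing notes name Bowtie 0.12.2 and the builds mm8 and mm9. The authors deposited 1 table under the name RPKM. Its range fits only a log scale, taken here to be log2 after an offset of 1 because the scale begins at 0. All 6 libraries share 1 highest value, so a normalization between libraries had been applied. That normalization and the log transform are not given in the sources used here. Extraction and library kits differ between the labels (Qiagen, TruSeq) and the methods. Because the build is uncertain, no coordinates are given for genes, and promoters come from RefSeq by symbol.

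For the test, limma 3.58.1 under R 4.3.3 was run on the deposited log2 values (lmFit and eBayes, trend option on), MA against Control, without covariates, over 13321 genes with at least 0.5 RPKM in at least 3 libraries. Single values were also compared with the exact two-sided permutation test. In 10 simulated tables of 13321 genes with a log2 change of 1 in 200 genes, the median share of changed genes recovered was 77.75% and 5.26% of calls were false. The changed genes were drawn from all tested genes, whose median SE was 0.12, against 0.21 for the motile members. The largest log2 fold change of a member was 0.78, so this share does not tell how many changed members would be found. Exonic overlaps came from GENCODE M21. The members and lists were chosen with earlier results of these data known. Described by library were Foxj1, Ccdc153, Tmem212, the pair of genes with the smallest p and the most abundant gene of each family, and the 3 members on each side of the filter. The other members named, and the genes named from other lists, were chosen after their values were seen. The limma p-values set the difference between the groups against the spread between these libraries within each group.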

Additional observations from a re-analysis of the deposited data

How the results depend on the processing

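Under every alternative the motile median stayed above 0 and above the general median. The difference between the medians of 0.21 fell to 0.0816 with no filter, 0.0247 with a minimum mean of 5 RPKM, under which 7 motile members were tested, and 0.0602 with sample quality weights. Those weights gave a motile median of 0.0584. With each library left out, the motile median ranged from 0.0414 to 0.297, the difference from 0.0481 to 0.242, and the count of motile members at an unadjusted p-value under 0.05 from 3, without Control replicate 2, to 9, without MA replicate 1. That count was 6 with all libraries and 1 with the minimum mean of 5. The 35 genes called over the whole table became 3 with no filter, 20 with the minimum mean of 5, 586 with sample quality weights, and 0 to 257 with each library left out. Members past the adjusted threshold numbered 2 with sample quality weights and 0 under the other alternatives. Pseudocounts of 0.1 and 0.01, median centring, quantile normalization and eBayes without the trend changed no call of a member. The deposited libraries already had medians of 3.26 to 3.27 over the tested genes and 1 shared highest value. Median centring and quantile normalization could therefore change little. The smaller pseudocounts, 0.1 and 0.01, gave larger log2 fold changes for low members, at 1.35 and 1.56 for Cfap206, 1.496 and 1.685 for Tekt4, 0.764 and 0.828 for Rsph4a, 0.735 and 0.957 for Dnah11, 0.597 and 0.935 for Cfap53, 0.631 and 0.719 for Cfap46, and -0.18 and -0.19 for Dnah9.

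The groups share replicate numbers, but libraries with 1 number did not deviate together from their groups (correlations of -0.197, -0.242 and -0.337), and 0 of 6 libraries correlated best with its own number, so the numbers are not taken as pairs. A fit with the replicate block called 15 genes over the whole table, no member was called, Drc7 had a limma adjusted p of 0.228, and the medians are the same by construction. Of 288 values of named members under the alternatives, 4 had the other sign, for Tmem212, Cfap53 and Dnah9, none of which was called. The depth is unknown and limits what low members can show.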

Other observations

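Neurons of the thalamus, which lies next to the hippocampus, also carry primary cilia, and their markers followed another order of libraries than the motile genes. All 7 thalamic markers had values above 0, with a summed level of 39.4, 38.7 and 60.8 RPKM in Control replicates 1, 2 and 3 and 119, 117 and 59.5 RPKM in MA replicates 1, 2 and 3. None passed the adjusted threshold (limma), and 2 (28.6%) reached an unadjusted p-value under 0.05, where 10.4% of all tested genes did. MA replicate 3, the library with the highest motile and choroid plexus levels, had the lowest thalamic level of the MA libraries. The part of thalamic tissue in the values of the cilium genes was not tested. Over the remaining marker lists the median log2 fold change was -0.14 for 10 hippocampal neuron markers, -0.10 for 8 astrocyte markers (-0.02 without MA replicate 3), -0.19 for 7 oligodendrocyte markers and -0.02 for 6 microglia markers. None passed the adjusted threshold (limma), and 2, 1, 0 and 0 reached an unadjusted p-value under 0.05, where 10.4% of all tested genes did.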
